A study of Mus musculus with 6 samples.

Results

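The Nrf2 antioxidant genes described here are 10 genes of the table, found by symbol: Nfe2l2, which encodes the transcription factor Nrf2, its inhibitor Keap1, and 8 genes that Nrf2 is known to activate (Hmox1, Nqo1, Gclc, Gclm, Txnrd1, Srxn1, Slc7a11 and Osgin1). All 10 were among the 24532 genes listed, and 9 had enough reads to be tested. RNA came from whole gastrocnemius, the large calf muscle, of C57BL/6 mice aged 12 weeks. The 3 knockout mice carried floxed Usp21 alleles (USP21 flox/flox) together with Ckmm-Cre, in which the promoter of the muscle form of creatine kinase directs the recombinase, and the 3 control mice carried USP21 flox/flox without the Cre. Usp21 encodes an enzyme that removes ubiquitin from proteins. The promoter drives Cre in muscle fibres, so other cells of the tissue keep the gene, and the labels do not say whether controls and knockouts were littermates beyond naming the control genotype Litter.

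In resting cells Keap1 holds Nrf2 and presents it to a Cul3 ubiquitin ligase, which leads to its degradation. Oxidants and electrophiles modify cysteines of Keap1, Nrf2 then accumulates, pairs with a small Maf protein and binds antioxidant response elements near its target genes, while Bach1 competes for the same elements and represses Hmox1. The targets supply glutathione, reduce oxidised thioredoxin and peroxiredoxin, degrade haem and reduce quinones. Contracting muscle produces oxidants, and since Nrf2 is controlled mainly through its stability, the mRNA of Nfe2l2 is not a measure of its activity.

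Antioxidant response elements are short DNA sites, so stretches upstream of some of these genes are shown. They are Srxn1, Nfe2l2, Gclm and the second listed start of Txnrd1, each with a match to the letters searched. Nqo1 is added because it was lower in every knockout than in any control. RefSeq promoter windows (build GRCm38.p6, 250 bases before to 50 after a start site) were matched by symbol for 8 of the 10 genes, with 10 windows because Txnrd1 has 3 starts; Hmox1 and Gclc had none. The 250 upstream bases were searched on both strands for the core TGACNNNGC and for the AP-1 site TGACTCA, whose letters can lie inside a longer antioxidant response element. Matches are in capitals, and on the other strand the AP-1 letters read TGAGTCA.
Srxn1, chr2:152105397-152105510, plus strand: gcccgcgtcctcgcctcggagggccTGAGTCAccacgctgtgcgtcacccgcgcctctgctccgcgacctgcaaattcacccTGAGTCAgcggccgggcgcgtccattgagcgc
Nfe2l2, chr2:75704870-75704913, minus strand: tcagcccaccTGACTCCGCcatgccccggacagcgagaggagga
Gclm, chr3:122245398-122245456, plus strand: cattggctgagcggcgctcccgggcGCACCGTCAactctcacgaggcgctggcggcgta
Txnrd1 at its second listed start, chr10:82859089-82859147, plus strand: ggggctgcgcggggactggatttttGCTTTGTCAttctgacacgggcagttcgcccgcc
Nqo1, chr8:107403207-107403266, minus strand, no match: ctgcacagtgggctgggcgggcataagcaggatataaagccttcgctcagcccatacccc
The core was present upstream of Nfe2l2, Gclm and the second start of Txnrd1, and 10.2% of all 32851 promoter windows held it in their upstream 250 bases. In Srxn1 the core lay past the start, at bases 29 to 37 on the opposite strand; over the full windows of 300 bases, 12.4% held it. The AP-1 site occurred at 2 places upstream of Srxn1, beginning 102 and 45 bases before its start, and at 1 place upstream of Osgin1 (not shown). In their upstream 250 bases, 4.46% of all windows held it. No match lay upstream of Keap1, Slc7a11, Nqo1 or the other starts of Txnrd1, and of these only Nqo1 is shown. These are matches of letters in a short window, and no binding was measured. Only the stated letters were searched, so variant forms of the element would be missed, also upstream of Srxn1.

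Total counts were 53906493 to 65425324 in knockout libraries and 48658436 to 67332846 in control libraries. Usp21 averaged 7.91 ± 1.02 CPM (counts scaled to library size with TMM factors) in the 3 knockouts and 19.2 ± 0.0762 CPM in the 3 controls (SD), which is -1.28 on the log2 scale (SE 0.11) with an adjusted p of 0.0355 in edgeR's quasi-likelihood test. That p was 0.154 with knockout 2 left out, and 0.186, 0.129 and 0.0944 with controls 1 to 3 left out in turn. Fast-fibre markers, which define this muscle, summed to 201060 to 234700 CPM in knockouts and 176200 to 221200 CPM in controls. Markers of slow fibres summed to 656 to 1582 CPM in knockouts, against 1297 CPM in control 1, 1252 CPM in control 2 and 133 CPM in control 3, so that control stood apart. Libraries of the same group differed by more than sampling noise (lowest chi-square 34.9 per degree of freedom), and each was counted as a sample. Since litters are not given in the labels, the p-values reflect only how far these 6 samples vary. In whole muscle, fewer cells of a type and less RNA per cell cannot be told apart.

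Log2 fold changes of the antioxidant genes differed in direction and size. Hmox1, Srxn1 and Nfe2l2 were high in knockouts 1 and 2 and near the controls in knockout 3, Nqo1 was lower in all 3 knockouts than in any control, and the genes of glutathione supply and Txnrd1 lay between 0.17 and 0.27 in log2 fold change (knockout minus control). None of the 9 tested genes passed an edgeR adjusted p under 0.05 over all 14109 genes tested, of which 0.0567% passed. With no adjustment, 3 were higher at a p under 0.05 (Hmox1, Srxn1 and Nfe2l2; 6.56% of all genes tested) and 1 was lower (Nqo1; 5.07% of all genes), or 4 of 9 against 11.6% in either direction. DESeq2's Wald test and limma-voom also called none after adjustment. The median log2 fold change over the 9 genes was 0.27, with 7 positive and 2 negative, beside -0.0037 over all genes. The genes were chosen with earlier results of these data known. These comparisons with all genes are therefore descriptive and give no separate evidence.

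**Figure D1:**
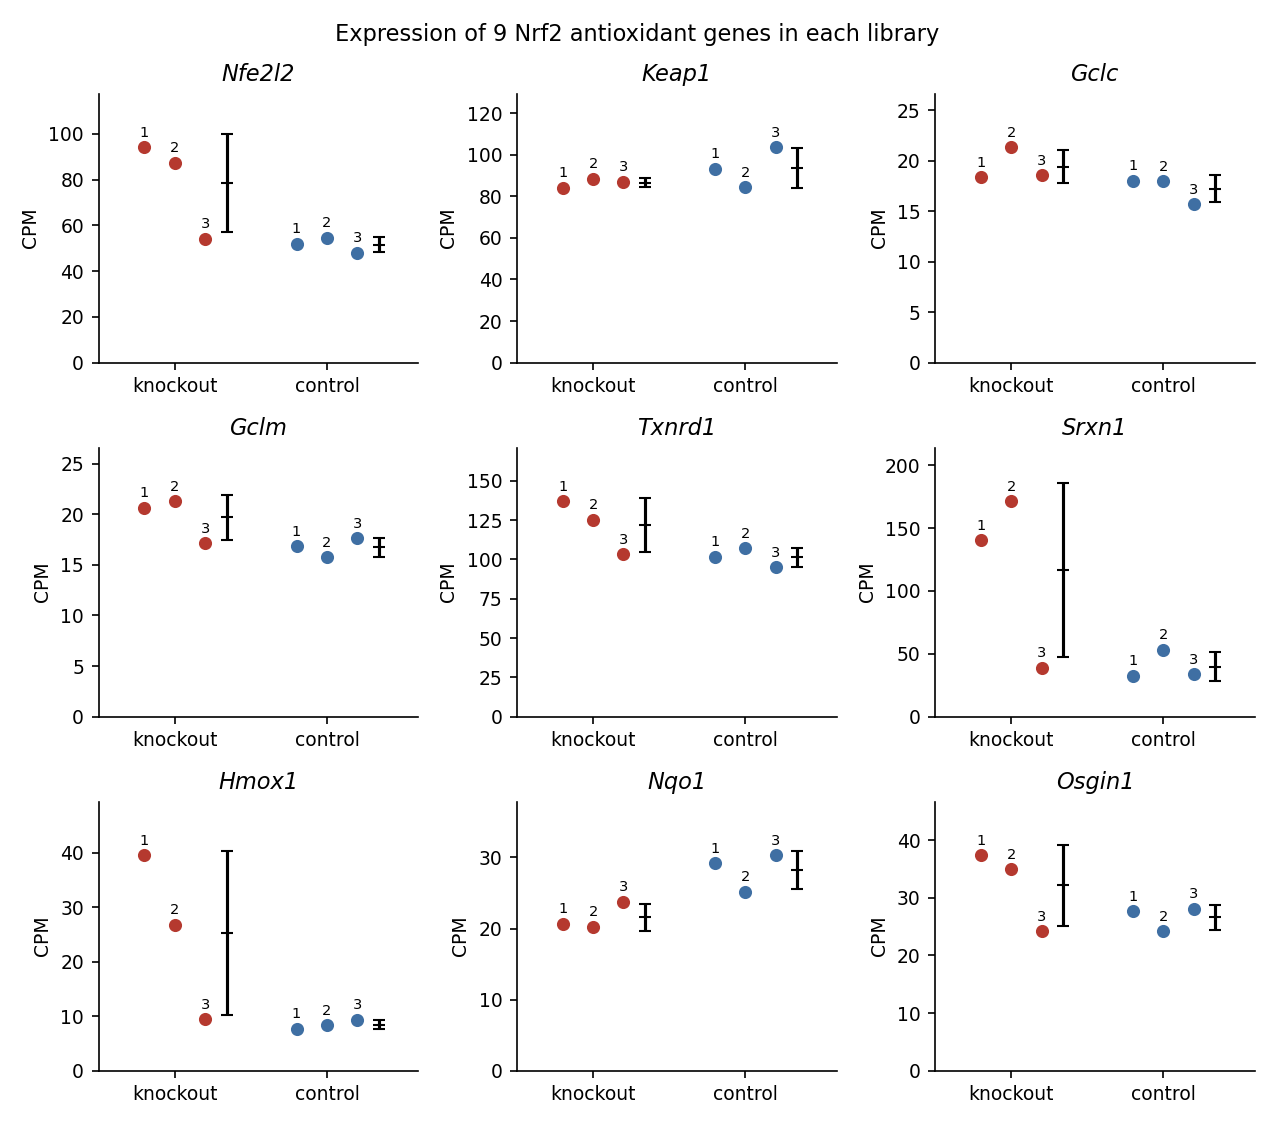
Level in CPM (vertical axis, linear from 0) of the 9 tested genes in each knockout and control library; numbers on the points are replicates, and the bars beside them show mean ± SD of 3 libraries. For Hmox1 and Srxn1 knockouts 1 and 2 stand far above knockout 3, which lies at 9.42 CPM beside a highest control of 9.32 CPM for Hmox1 and below control 2 for Srxn1.

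The factor and its inhibitor are described first. Nfe2l2 (Entrez 18024) had 94.1, 87.3 and 54.2 CPM in knockouts 1 to 3, against 52.1, 54.6 and 48.1 CPM in controls 1 to 3. Knockouts 1 and 2 stood above every control, whereas knockout 3 lay inside the control range, so the groups overlapped. The difference was 0.61 in log2 units (SE 0.19; edgeR unadjusted p = 0.0153, adjusted p = 0.363), or 1.52-fold. Keap1 (Entrez 50868) had 84.0, 88.5 and 86.9 CPM in knockouts 1 to 3, against 93.2, 84.3 and 103.5 CPM in controls 1 to 3. Its values overlapped and were closer together among the knockouts than among the controls (log2 fold change -0.12, SE 0.093; edgeR adjusted p = 0.670).

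The proportion of these mRNAs differed between libraries accordingly. On the FPKM scale, which divides by gene length, the ratio of Nfe2l2 to Keap1 was 1.68, 1.44 and 0.918 in knockouts 1 to 3, against 0.816, 0.954 and 0.674 in controls 1 to 3. On that scale Nfe2l2 exceeded Keap1 in knockouts 1 and 2 and was below it in the other libraries. In CPM, Nfe2l2 was below Keap1 in knockout 2 as well (87.3 against 88.5). The ratio averaged 1.35 ± 0.391 in knockouts and 0.815 ± 0.140 in controls (SD, n = 3 each) and was not tested.

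Haem and quinone enzymes diverged. Hmox1 (Entrez 15368), the inducible haem oxygenase that breaks haem into biliverdin, iron and carbon monoxide, had 39.5, 26.8 and 9.42 CPM in knockouts 1 to 3, against 7.72, 8.37 and 9.32 CPM in controls 1 to 3. The groups did not overlap, but the margin between knockout 3 and the highest control was 9.42 against 9.32 CPM, and behind those values stood 516 and 616 counts. Hmox1 had the largest log2 fold change of the 9 genes (1.58, SE 0.44; edgeR unadjusted p = 0.00847, adjusted p = 0.325), or 2.98-fold. The constitutive isoform Hmox2, named after its values were seen as a point of reference for the ratio, averaged 31.1 ± 1.70 CPM in knockouts and 32.2 ± 1.22 CPM in controls (SD, n = 3 each; log2 fold change -0.047). The FPKM ratio of Hmox1 to Hmox2 was 1.06, 0.672 and 0.226 in knockouts 1 to 3, against 0.184, 0.214 and 0.224 in controls 1 to 3.

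Nqo1 (Entrez 18104), a reductase that turns quinones into hydroquinones with NADPH or NADH, had 20.7, 20.3 and 23.8 CPM in knockouts 1 to 3, against 29.2, 25.2 and 30.3 CPM in controls 1 to 3. Every knockout lay below every control, and knockout 3 was the closest to them. The log2 fold change was -0.39 (SE 0.11; edgeR unadjusted p = 0.00706, adjusted p = 0.314), that is 0.765 of the control level. This p was the smallest of the 9 genes and belonged to a gene lower in knockouts. In an exact two-sided permutation test on log2 CPM, p was 0.1 for Nqo1, Hmox1 and Gclc, the lowest value possible with 3 libraries against 3. Any gene whose groups do not overlap reaches this value, and 17.3% of all genes tested were of that kind. For Srxn1 and Nfe2l2 the exact p was 0.2.

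Of the thiol-repair enzymes, Srxn1 (Entrez 76650) encodes sulfiredoxin, which reactivates over-oxidised peroxiredoxins. It had 140, 171 and 38.8 CPM in knockouts 1 to 3, against 32.4, 53.4 and 33.6 CPM in controls 1 to 3. Knockouts 1 and 2 were far above every control, while knockout 3 lay below control 2. Its log2 fold change reached 1.55 (SE 0.49; edgeR unadjusted p = 0.0151, adjusted p = 0.363), or 2.93-fold. Txnrd1 (Entrez 50493), the cytosolic thioredoxin reductase, had 137, 125 and 103 CPM in knockouts 1 to 3, against 102, 107 and 95.2 CPM in controls 1 to 3. It kept the order of Nfe2l2, with knockouts 1 and 2 highest and knockout 3 inside the control range, at a smaller size (log2 fold change 0.27, SE 0.12; edgeR adjusted p = 0.435).

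Genes of glutathione supply stood close to their controls. Gclc and Gclm encode the catalytic and modifier subunits of glutamate-cysteine ligase, the rate-limiting enzyme of glutathione synthesis. Gclc (Entrez 14629) had 18.4, 21.3 and 18.5 CPM in knockouts 1 to 3, against 18.0, 18.0 and 15.7 CPM in controls 1 to 3. In CPM its groups did not overlap. On that scale 3 of the 9 genes were of this kind (Hmox1 and Gclc higher, Nqo1 lower). So were 17.3% of all genes tested (8.38% higher and 8.87% lower in knockouts). On the FPKM scale the groups of Gclc did overlap, at 5.27, 5.74 and 5.32 in knockouts 1 to 3, against 5.34, 5.52 and 4.42 in controls 1 to 3. The smallest gap for Gclc was 18.4 against 18.0 CPM, and its log2 fold change stood at 0.17 (SE 0.10) with an edgeR adjusted p of 0.562. Gclm (Entrez 14630) had 20.6, 21.3 and 17.1 CPM in knockouts 1 to 3, against 16.8, 15.8 and 17.6 CPM in controls 1 to 3, with knockout 3 inside the control range (0.23, SE 0.11; adjusted p = 0.456). The FPKM ratio of Gclm to Gclc averaged 1.68 ± 0.168 in knockouts and 1.62 ± 0.216 in controls (SD, n = 3 each), a difference smaller than either spread.

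Slc7a11 (Entrez 26570), which encodes xCT, the carrier chain of the cystine and glutamate exchanger, was barely detected and was not tested. It had 10, 8 and 5 counts in knockouts 1 to 3, against 2, 7 and 0 counts in controls 1 to 3. In CPM these were 0.153, 0.159 and 0.0913 in knockouts 1 to 3 and 0.0399, 0.108 and 0 in controls 1 to 3, and a count of 0 in control 3 allows up to 0.0454 CPM. Knockout 3 lay below control 2, so the groups overlapped. Its partner chain Slc3a2, which also serves other amino acid carriers, is given with the wider pathway below.

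Osgin1 (Entrez 71839), an oxidative stress-induced growth inhibitor, had 37.4, 34.9 and 24.2 CPM in knockouts 1 to 3, against 27.6, 24.2 and 28.1 CPM in controls 1 to 3. Knockouts 1 and 2 were above all controls, whereas knockout 3 was level with control 2, the lowest control. Osgin1 differed by 0.27 in log2 units (SE 0.16; edgeR adjusted p = 0.569).

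The same libraries were high for most of these genes. Knockout 1 was the highest of the 6 libraries for 4 of the 9 genes (Nfe2l2, Txnrd1, Hmox1 and Osgin1) and knockout 2 for 3 (Gclc, Gclm and Srxn1), while control 3 was the highest for Keap1 and Nqo1. The median of the 9 genes, as log2 CPM relative to each gene's mean over the libraries, was 0.31, 0.23 and -0.097 in knockouts 1 to 3, against -0.11, -0.20 and -0.22 in controls 1 to 3. Knockout 3 was thus closer to control 1 than to the other knockouts.

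**Figure D2:**
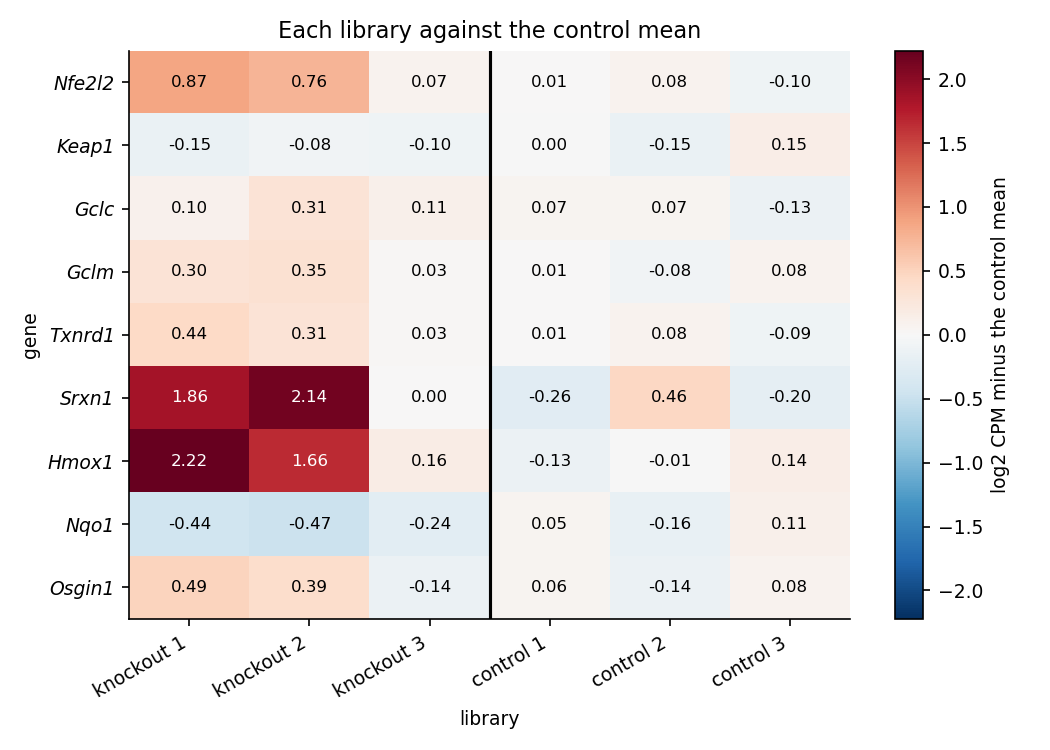
Log2 CPM of each of the 9 tested genes minus its control mean (colour and printed value) in the 6 libraries (columns, knockouts left of the line). Hmox1 stands at 2.22, 1.66 and 0.16 in knockouts 1 to 3 and Srxn1 at 1.86, 2.14 and 0.0031, whereas Nqo1 is negative in all 3.

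The genes differed in how far the knockouts lay apart. The SD of log2 CPM over the 3 knockouts was 1.16 for Srxn1, 1.07 for Hmox1 and 0.431 for Nfe2l2, against 0.400, 0.136 and 0.0928 over the 3 controls. Over all genes tested the median SD was 0.157 among knockouts and 0.161 among controls, and 97.8% of genes had a lower SD among knockouts than Srxn1, 97.3% than Hmox1 and 84.1% than Nfe2l2. Keap1 was at the other end, with an SD of 0.0378 among knockouts, and 6.27% of genes had a lower one.

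Since 1 library weighed so much, the differences were recomputed with each library left out in turn. Without knockout 3 the log2 fold change was 1.97 for Hmox1 (edgeR adjusted p = 0.0149), 1.97 for Srxn1 (0.0259) and 0.81 for Nfe2l2 (0.0226), and these 3 genes passed. In that fit 0.982% of all 14355 genes tested passed (0.836% higher and 0.146% lower). Knockout 3 is also the knockout in which all 3 genes were lowest, so leaving it out was bound to raise their differences and gives no separate evidence. Without knockout 1 the values were 1.09 for Hmox1, 1.39 for Srxn1 and 0.45 for Nfe2l2, and without knockout 2 they were 1.53, 1.17 and 0.52. No gene of the 9 passed in the other fits, and none changed sign. Nqo1 stayed between -0.47 and -0.33 and did not pass in any of them.

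**Figure D3:**
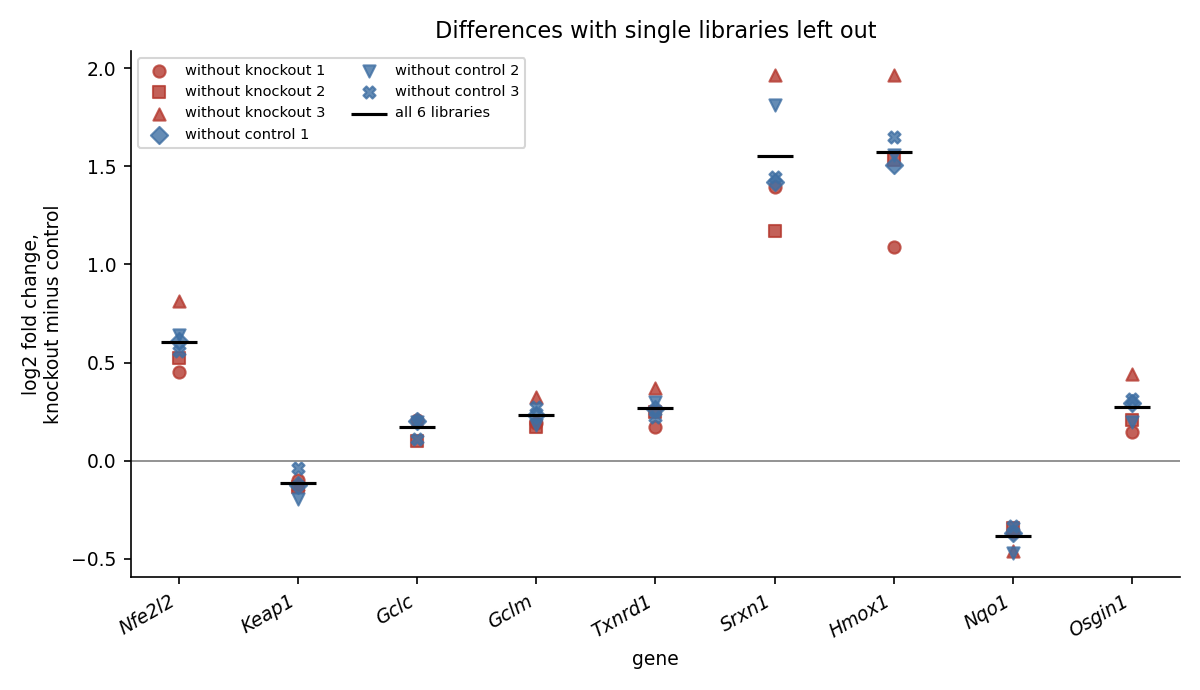
Log2 fold change, knockout minus control, of the 9 tested genes with all 6 libraries (bars) and with each knockout (red) or control (blue) library left out. Values without knockout 3 are the highest for Hmox1, Srxn1 and Nfe2l2 (1.97, 1.97 and 0.81), and no gene changes sign.

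Compared per length, the mRNAs of the pathway held different ranks in the means of the 2 groups. Knockout 3 by itself, however, had the order of the control means. Its values were Txnrd1 29.8, Keap1 23.4, Nfe2l2 21.5, Nqo1 15.0, Srxn1 13.6, Osgin1 12.1, Gclm 8.12, Hmox1 5.87 and Gclc 5.32 FPKM. In knockouts Srxn1 averaged 39.6 FPKM, followed by Txnrd1 at 34.3, Nfe2l2 at 30.3, Keap1 at 22.6, Osgin1 at 15.8, Hmox1 at 15.4, Nqo1 at 13.4, Gclm at 9.13 and Gclc at 5.44 FPKM. In controls the order was Txnrd1 at 30.1 FPKM, Keap1 at 26.0, Nfe2l2 at 21.0, Nqo1 at 18.3, Srxn1 at 14.4, Osgin1 at 13.7, Gclm at 8.16, Hmox1 at 5.42 and Gclc at 5.10 FPKM. Slc7a11 was last in both, with at most 0.0163 FPKM in a library. Among knockouts, neighbours in this order were separated in range only at Keap1 over Osgin1, Nqo1 over Gclm, Gclm over Gclc and Gclc over Slc7a11. Among controls they were separated at Keap1 over Nfe2l2, Osgin1 over Gclm, Gclm over Hmox1 and Gclc over Slc7a11.

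Macrophages also express Hmox1, so markers of other cell types are given beside it. The 10 macrophage markers summed to 224, 134 and 218 CPM in knockouts 1 to 3, against 131, 228 and 136 CPM in controls 1 to 3. These sums overlapped between the groups, although 9 of the 10 markers had log2 fold changes above 0 (median 0.29). Itgam, an integrin of myeloid cells, was the only marker of the 10 with an edgeR unadjusted p under 0.05 or groups without overlap. Over all genes tested, 11.6% reached such a p and 17.3% did not overlap. Itgam had 9.74, 5.33 and 5.75 CPM in knockouts 1 to 3, against 2.71, 4.82 and 3.25 CPM in controls 1 to 3. Its log2 fold change was 0.95 (SE 0.30, edgeR unadjusted p = 0.0140, adjusted p = 0.363), while Adgre1 was at 0.010 and Csf1r at -0.096. The 6 neutrophil markers summed to at most 1.21 CPM in any library, and Ly6g was at 0 in all 6. The 6 erythroid markers summed to 191, 1011 and 274 CPM in knockouts 1 to 3 and to 197 to 248 CPM in controls, so knockout 2 stood apart. The 8 fibroblast and matrix markers summed to 3037, 2873 and 2543 CPM in knockouts 1 to 3, against 1928, 2556 and 1663 CPM in controls 1 to 3. All 8 had a positive log2 fold change. Of the 8, 4 had an edgeR unadjusted p under 0.05, the groups of 2 did not overlap, and none passed after adjustment. The 6 endothelial markers summed to 240 to 261 CPM in knockouts and 229 to 301 CPM in controls. The 6 adipocyte markers summed to 79.4 to 256 CPM in knockouts and 44.0 to 188 CPM in controls. The part of any of these cell types in the levels of Hmox1 and the other antioxidant genes was not tested.

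In the wider pathway, 84 of 90 other genes listed in 8 roles were tested. By edgeR's test none passed after adjustment. Before adjustment 5 reached a p under 0.05 with higher and 7 with lower levels in knockouts, beside 6.56% and 5.07% of all genes tested. Groups did not overlap for 5 genes higher and 6 lower in knockouts, beside 8.38% and 8.87% of all genes tested. The median log2 fold change of the 84 genes was -0.028, with 36 positive and 48 negative. These lists, too, were chosen with earlier results of these data known.

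Among 10 tested regulators the median was 0.12. Bach1, the repressor that competes with Nrf2, had 64.0, 54.5 and 51.8 CPM in knockouts 1 to 3, against 42.5, 40.4 and 34.7 CPM in controls 1 to 3, so the groups did not overlap (log2 fold change 0.53, SE 0.11; edgeR adjusted p = 0.241). Maff, a small Maf partner of Nrf2 and of Bach1, had 20.1, 16.6 and 5.57 CPM in knockouts 1 to 3, against 3.81, 5.33 and 3.28 CPM in controls 1 to 3 (1.77, SE 0.44; adjusted p = 0.305). As for Hmox1, knockout 3 was just above the highest control. DESeq2's Wald test, which called 2.06% of all genes and 1.49% as higher, called Maff (adjusted p = 0.0014), Bach1 (0.00617) and Slc3a2 (0.0417), all higher. Without knockout 3 edgeR called Maff (adjusted p = 0.0185). Knockout 3 was the lowest knockout for Maff, so the call without it gives no separate evidence.

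Genes of glutathione handling were mixed. Slc3a2, the heavy chain that pairs with Slc7a11, had 51.8, 55.1 and 45.9 CPM in knockouts 1 to 3, against 40.0, 40.0 and 31.9 CPM in controls 1 to 3, without overlap (log2 fold change 0.45, SE 0.12; edgeR adjusted p = 0.305). Gpx4, the peroxidase that reduces lipid hydroperoxides, averaged 264 ± 13.0 CPM in knockouts and 302 ± 11.8 CPM in controls (SD, n = 3 each; -0.19, adjusted p = 0.416), with every knockout below every control. The median over the 10 tested genes of this role was -0.039.

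Glutathione S-transferases, which join glutathione to electrophiles, had 15 of 18 tested genes negative, a median of -0.24 and none past the adjusted threshold. Gstk1 averaged 27.3 ± 2.43 CPM in knockouts and 34.3 ± 3.54 CPM in controls (SD, n = 3 each), with a log2 fold change of -0.33 ± 0.11 (SE) and an edgeR adjusted p of 0.363. Gstp2 averaged 44.0 ± 0.659 CPM in knockouts and 58.6 ± 12.9 CPM in controls (SD, n = 3 each; -0.41, adjusted p = 0.372), and like Gstk1 its groups did not overlap; its reads may be shared with its near-identical neighbour Gstp1. Most genes of this role have close paralogs, so the division of reads among them is uncertain. Without knockout 3, edgeR called Gstt2, named after its values were seen, as lower (-1.19, adjusted p = 0.0394). With all libraries Gstt2 was at -0.65 (edgeR adjusted p = 0.516) and its groups overlapped. Knockout 3 was the highest knockout for Gstt2 and lay inside the control range. Leaving it out was therefore bound to enlarge the difference, and the call gives no separate evidence.

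Detoxification and export genes had a median of -0.041 over 15 tested genes. Cbr1, a carbonyl reductase, averaged 18.3 ± 0.431 CPM in knockouts and 22.4 ± 2.09 CPM in controls (SD, n = 3 each), with a log2 fold change of -0.29 ± 0.092 (SE) and an edgeR adjusted p of 0.363, and like Nqo1 it was lower in every knockout. Ugdh, which makes UDP-glucuronate for conjugation and matrix sugars, had 67.1, 22.4 and 11.7 CPM in knockouts 1 to 3, against 8.42, 11.9 and 8.52 CPM in controls 1 to 3. Knockout 1 was far above the other libraries and knockout 3 was inside the control range (1.81, SE 0.58; adjusted p = 0.363).

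In the remaining roles the medians lay between -0.045 and 0.14. Thioredoxin and peroxiredoxin genes had a median of -0.0058 over 14 tested genes; Sesn2, a sestrin, averaged 2.26 ± 0.567 CPM in knockouts and 3.45 ± 0.243 CPM in controls (SD, n = 3 each; log2 fold change -0.62, edgeR adjusted p = 0.369) with every knockout below every control, and Txnip, which binds thioredoxin, was at 0.41 (adjusted p = 0.488). Genes of NADPH supply had a median of 0.015 over 6, with Me1, malic enzyme, at -0.21 (adjusted p = 0.635) and Idh1, cytosolic isocitrate dehydrogenase, at -0.28 (0.685). Haem and iron genes had a median of -0.045 over 7, with the ferritin chains Ftl1 at 0.22 (0.618) and Fth1 at -0.16 (0.650). The superoxide dismutases and catalase were positive in 4 of 4 genes, with a median of 0.14, Sod3 at 0.22 (0.620) and Sod2 at 0.16 (0.620).

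**Figure D4:**
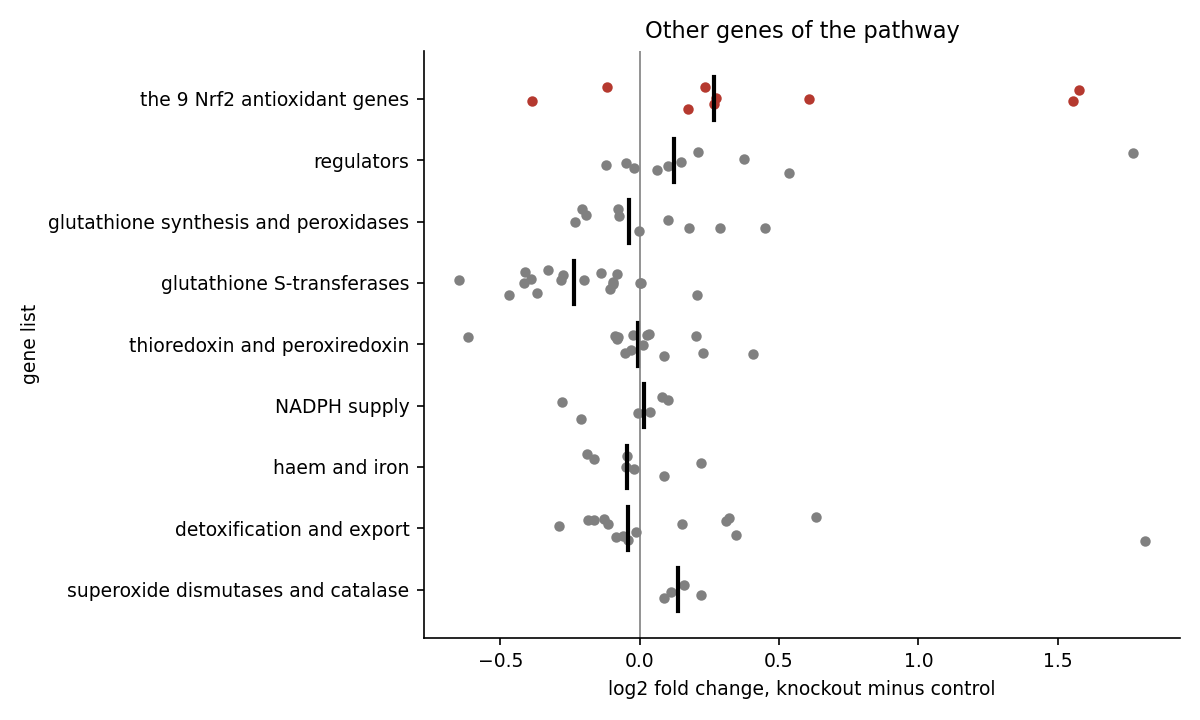
Log2 fold change, knockout minus control (horizontal axis), of the 9 tested Nrf2 antioxidant genes (red) and of 84 other pathway genes by role (grey); black bars are medians, and vertical scatter within a row is for legibility. Medians run from -0.24 for glutathione S-transferases to 0.27 for the 9 genes, and the points past 1.5 are Hmox1, Srxn1, Maff and Ugdh.

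Genes whose profile over the 6 libraries was closest were found by the root-mean-square difference of log2 CPM, each gene centred on its own mean, among all genes tested. For Hmox1 these were Mall (0.135), Csf2rb2 (0.163) and Ttyh1 (0.170), where the SD of Hmox1 itself was 1.00. For Srxn1 they were Fam132b (0.197), Nr4a2 (0.224) and Gprc5a (0.227), where its own SD was 1.07. No other of the 10 genes was among the closest 3 of either.

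Nfe2l2 (75675513 to 75704663) and Srxn1 (152105524 to 152111376) lie on chromosome 2, Gclm (122245487 to 122267215) and Slc7a11 (50364936 to 50499087) on chromosome 3, and Hmox1 (75093618 to 75100593), Nqo1 (107388225 to 107403205) and Osgin1 (119425882 to 119446257) on chromosome 8. Keap1 (21229730 to 21239332) and Gclc (77754535 to 77794489) lie on chromosome 9 and Txnrd1 (82833951 to 82897724) on chromosome 10, all in GRCm38.p6. Gclm, Txnrd1 and Osgin1 overlap other annotated genes, and of these the protein-coding Eid3, within Txnrd1, had at most 6 counts in a library.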

How the data were processed

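Polyadenylated RNA of 6 gastrocnemius samples was sequenced with a strand-preserving kit, per the labels' protocols. The authors deposited whole-number read counts per gene, unnormalized per the file headers, with FPKM (scaled to length and library size) and TPM (scaled to the sum over transcripts), both from the authors, per the file headers; TPM was not used. The submitters' processing notes name StringTie 1.3.4d, Bowtie2 2.3.4.1, FastQC 0.11.7 and bcl2fastq 2.20.0 and the mm10 build; their roles and the strand setting were not given in the sources used here. Of 24532 identifiers, 24462 were found in the RefSeq table of GRCm38.p6, the assembly mm10 names.

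Counts were tested with edgeR 4.0.16 in R 4.3.3: filterByExpr (minimum count 10), TMM, quasi-likelihood test, Benjamini-Hochberg adjustment over 14109 genes, threshold 0.05; SE came from the F statistic. The test was checked on simulated counts. No library was set apart in them, so the check does not cover one like knockout 3. CPM used TMM factors, and log2 CPM a prior count of 2. The limit for a count of 0 is 3 counts, which covers counting error only. Columns of other samples numbered 0.

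All 10 genes were named; of each pathway role the 2 with the smallest p; and the 3 closest profiles of Hmox1 and Srxn1 (1 result for another gene is not reported here). Members and lists were chosen with earlier results of these data known. Alternatives were DESeq2 1.42.0 (size factors, Wald test), upper-quartile scaling, other filters, limma 3.58.1 (voom; trend on log2 of FPKM plus 1 or 0.1), a replicate term and single libraries left out.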

Additional observations from a re-analysis of the deposited data

How the results depend on the processing

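Across 15 alternatives, 132 of 135 refits of the 9 genes kept their direction and their side of the threshold, 3 newly passed (Hmox1, Srxn1 and Nfe2l2 without knockout 3) and none reversed. The median of the 9 genes ran from 0.19 to 0.37 with single libraries left out and from 0.17 to 0.27 under the other settings. With single libraries left out, the genes called ranged from 0 to 3 among the 9, from 0 to 2 among the other pathway genes and from 1 to 141 over all genes, against 0, 0 and 8 with all libraries. DESeq2's Wald test called 290 genes over all and 3 pathway genes, limma-voom called 5 over all, and limma on FPKM plus 1 or plus 0.1 called 1 each. The cause was not tested. Usp21 was at -1.15 with FPKM plus 1 (adjusted p = 0.0657), at -1.335 with FPKM plus 0.1 (0.0552) and from -1.40 to -1.22 with single libraries left out, where it did not pass without knockout 2, control 1, control 2 or control 3. Same-numbered libraries did not deviate together (r = -0.00823, -0.186 and -0.0981 over genes), while knockout 2 and control 3 reached 0.177. These values gave no sign that the numbers pair the samples, but so few libraries cannot exclude a pairing. With a replicate block edgeR called 0 genes over all (1164 at an unadjusted p under 0.05) and Usp21 was at -1.29 (adjusted p = 0.20). Depth limited Slc7a11, which had at most 10 counts in a library.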
